A study of Mus musculus with 12 samples.

Results

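The genes described here encode the proteasome, the cell's main machine for degrading ubiquitin-tagged protein, in mouse megakaryocytes exposed to a glucocorticoid. Members were all genes whose symbol starts with Psma, Psmb, Psmc, Psmd or Psme followed by a digit, without the suffix -ps, and whose probe set carries a single gene symbol. There were 43 such genes among 30142 named genes on the arrays, each with 1 probe set, and 42 of them were tested among 24265 genes. The symbol rule also takes in Psmc3ip, a meiotic recombination factor, and Psme3ip1, a partner of an activator, which are 2 members that are no subunits. The core subunit gene Psmb5 and the activator gene Psme2 lie on probe sets that carry several symbols and were not analysed here.

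The 12 arrays measured RNA of megakaryocytes, the platelet-forming cells of bone marrow, grown in vitro from hematopoietic stem cells of male C57BL/6 mice with thrombopoietin at 100 ng/ml for 3 days and then overnight in charcoal-stripped serum. Purified day 4 cells of 6 cultures were split, so that every culture gave 1 array after 6 h with 100 nM dexamethasone, a synthetic glucocorticoid, and 1 array after 6 h with its vehicle. All cells thus shared the strain, the sex, thrombopoietin and the stripped serum, and the labels do not say whether each culture came from separate animals. Cultures are numbered 1 to 6 here as the labels number the replicates. Values are log2 array values as deposited, so a difference of 1 is a factor of 2, and folds are the deposited log2 differences turned back.

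The proteasome consists of a barrel-shaped 20S core, in which rings of alpha subunits gate the entrance and rings of beta subunits hold the proteolytic sites, and of caps that feed it. The 19S regulatory particle is the main cap: its base carries a ring of ATPases that unfold substrates, and its base and lid hold ubiquitin receptors and the deubiquitinase that frees ubiquitin. Interferons induce alternative catalytic beta subunits, which replace the standard ones to form the immunoproteasome, and the PA28 activator, and both are known for their part in making peptides for MHC class I molecules. In megakaryocytes proteasome activity is needed for platelet formation, and proteasome inhibitors lower platelet counts in patients. In muscle, glucocorticoids are known to raise ubiquitin ligases and proteasome genes.

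After 6 h of dexamethasone 36 of the 42 tested proteasome genes differed from vehicle by less than 0.2 on the log2 scale. The 19S subunit gene Psmd4 rose 2.12-fold. Most of the 24265 genes tested also differed by less than 0.2. Among them Psmd11, at -0.17, ranked 2359 by size of fall, and Psmb10, at 0.15, ranked 3495 by size of rise. The count of 36 therefore does not by itself set the proteasome genes apart from other genes. Of the 42 tested members 3 rose, 4 fell and 35 did not pass an adjusted p of 0.05 by limma with culture as a block, Benjamini-Hochberg over all genes tested. Over all genes tested 12.0% passed, with 7.39% higher and 4.56% lower, against 16.7%, 7.14% and 9.52% of the members. The share of rises lay near that of all genes, and the share of falls lay above it as deposited but changed with the scaling. Both comparisons also depended on the filter. With a filter at the median of the negative controls, 13050 genes were tested, of which 2190 were higher and 1237 lower. All 42 members stayed in, with 3 higher and 5 lower. Their share of rises then lay below that of the genes tested, and their share of falls lay nearer to it. Psmd4, Psmb9 and Psmb1 rose, and Psme3, Psmd1, Psmd10 and Psmd11 fell. The members' median change was -0.02, beside -0.01 over all genes tested, and the members' median size of change was 0.06 beside 0.08. Fewer cells of a type and less RNA per cell cannot be told apart in such bulk samples.

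The balance of falls depended on the scaling of the arrays. After quantile normalization 3 members were higher and 7 lower, and after centring each array on its median 3 were higher and 1 lower. Of all genes past the threshold 61.9% were higher with the values as deposited, 44.9% with quantile-normalized values and 70.3% with centred ones. The rises of Psmd4, Psmb9 and Psmb1 and the fall of Psme3 passed under each of 16 other settings, which include both scalings and leaving out each culture in turn. The falls of Psmd1, Psmd10 and Psmd11 passed under 11, 8 and 7 of the 16, and 1 or 2 members were lower when any 1 culture was left out.

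**Figure D1:**
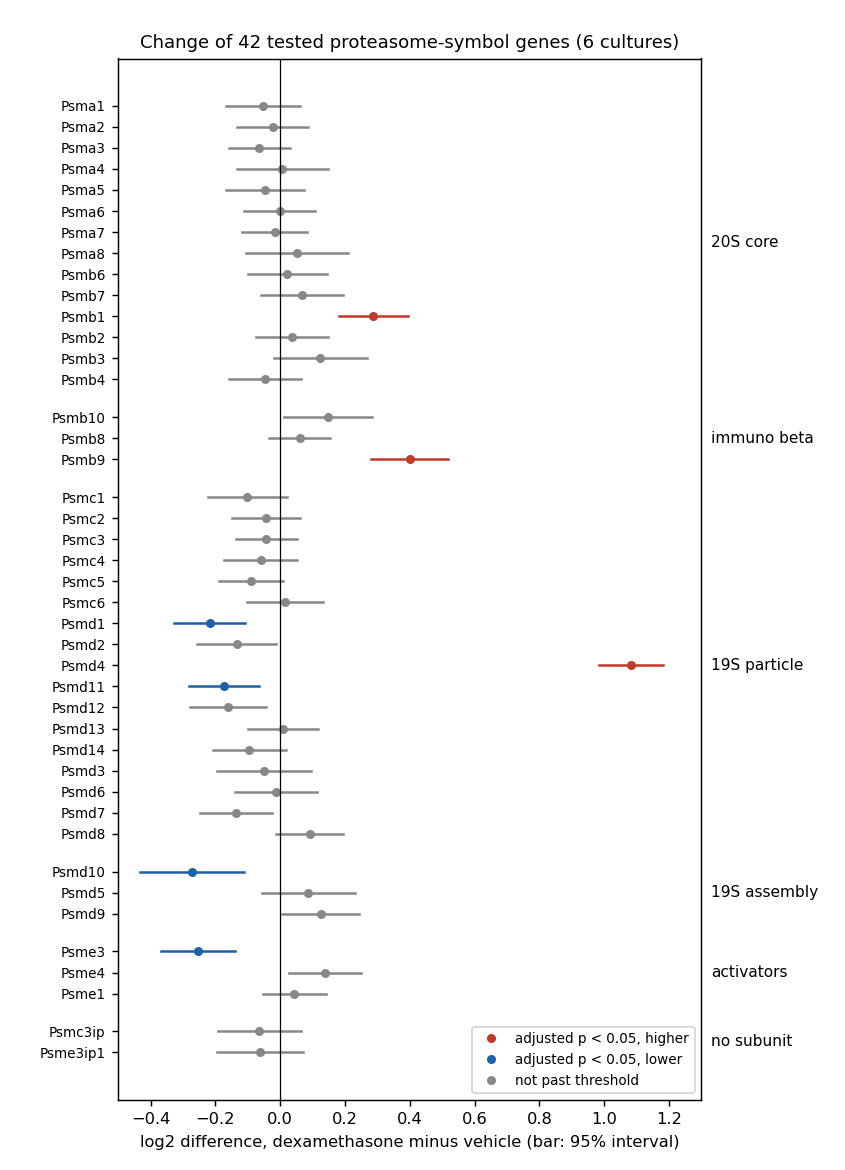
The log2 difference of dexamethasone minus vehicle (horizontal axis) for each of 42 tested genes, with its 95% interval from limma over 6 cultures, grouped by role. Psmd4 stands alone near 1.08, Psmb9 and Psmb1 lie above 0 at 0.40 and 0.29, and most other points lie within 0.2 of 0.

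Of the 35 members not past the threshold, 32 had a 95% interval that lay within a 1.2-fold change in either direction, a share of 91.4%, and among all genes not past the threshold the share was 66.6%. The members' median SD over the 6 vehicle arrays was 0.08, beside 0.12 for all genes tested. In both comparisons all genes are a mixed set, since 13050 of the 24265 passed a filter at the median of the negative controls. The same values were not computed for genes at the members' levels. Of the 43 members, 42 exceeded the negative controls' median (6.15 to 6.39) on all 12 arrays, and 31 lay above the 95th percentile of those controls (9.98 to 10.39) on all 12. The exception was Psmb11, the catalytic subunit of the thymic proteasome, which lay at 4.38 ± 0.19 in vehicle and 4.28 ± 0.09 in dexamethasone (SD, n = 6), under that median throughout, and was not tested. Psma8, a testis variant of the alpha ring, lay just above the control median at 6.67 ± 0.20 and 6.72 ± 0.09.

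The treatment was visible in textbook glucocorticoid targets, with Fkbp5 higher by 2.37 (SE 0.09) and Tsc22d3 by 2.48 (SE 0.06). Within a treatment, pairs of arrays had r of 0.990 to 0.994 across probe sets. All 11 measured megakaryocyte markers exceeded the negative controls' median on every array. Of markers of other cells, 7 of 11 macrophage and dendritic, 6 of 8 lymphoid, 4 of 9 mast cell and basophil, 2 of 4 erythroid and 2 of 12 neutrophil genes lay below it on all arrays. The mean level of the neutrophil list ran from 6.70 to 7.62 on vehicle arrays and from 6.33 to 7.37 on dexamethasone arrays. Some genes of every marker list but the erythroid one passed the threshold, each in the same direction in 6 of 6 cultures. Of 12 neutrophil genes 2 rose (Mmp8 by 0.47 and Lcn2 by 0.20) and 4 were lower (S100a9 at -0.77, S100a8 at -0.51, Camp at -0.49 and Ltf at -0.46). Of 8 tested mast cell and basophil genes Cpa3 and Kit rose by 0.64 and 0.33, the basophil gene Mcpt8 was lower (-0.28) and 5 did not pass. Of 11 macrophage and dendritic genes the progenitor gene Flt3 rose by 0.44, the monocyte gene Ccr2 was lower (-0.42) and 9 did not pass. Of 8 lymphoid genes Il7r rose by 0.18 and 7 did not pass. Of 11 megakaryocyte genes Gp9 and Clec1b rose by 0.44 and 0.24, the tubulin gene Tubb1 was lower (-1.14) and 8 did not pass. Of up to 16 other settings, the calls of Mcpt8, S100a8, Lcn2, S100a9 and Il7r were lost under 10, 9, 8, 6 and 6. Those of Kit and Camp were lost under 2 and 1. Lcn2 and Ltf exceeded the negative controls' median on 1 and 2 of 12 arrays, so their values lay near the floor. Flt3 was called under the 14 of 16 settings in which it was tested. It did not pass the filter in the rest, so its level was low too. The part of these marker changes in the members' changes was not tested.

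The promoters of 4 members are shown: those of Psmd4, Psmb9 and Psme3, whose calls held under all 16 other settings, and that of Psmb8, the immunoproteasome gene near Psmb9 that did not pass. Psmb1, whose call also held, is named only. Each sequence is the 250 bases before the start of the gene, 5′ to 3′ on the strand of the gene, from RefSeq's GRCm38.p6 table. Capitals mark matches, on either strand, to any of the motifs that were searched: TGACNNNGC (antioxidant response element), GAAA and GAAA with 2 free bases between (interferon response element), TTCNNNGAA (gamma-activated site), GNACA and TGTNC with 3 free bases between (glucocorticoid response element) and CCAAT. No matches overlapped one another in these windows. The window of Psmd4 is chr3:95042615-95042864 on the minus strand, that of Psmb9 chr17:34187331-34187580 on the minus strand, that of Psmb8 chr17:34197945-34198194 on the plus strand and that of Psme3 chr11:101315963-101316212 on the plus strand.
Psmd4: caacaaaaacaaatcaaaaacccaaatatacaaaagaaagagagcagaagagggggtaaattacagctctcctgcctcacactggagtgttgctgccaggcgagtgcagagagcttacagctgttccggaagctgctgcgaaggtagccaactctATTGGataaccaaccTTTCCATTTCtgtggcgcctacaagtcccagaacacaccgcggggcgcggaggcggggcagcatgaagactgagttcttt
Psmb9: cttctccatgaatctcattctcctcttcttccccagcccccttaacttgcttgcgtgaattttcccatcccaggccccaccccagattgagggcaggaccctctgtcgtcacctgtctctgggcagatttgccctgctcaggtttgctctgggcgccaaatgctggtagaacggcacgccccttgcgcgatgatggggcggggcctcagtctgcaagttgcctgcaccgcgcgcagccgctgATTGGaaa
Psmb8: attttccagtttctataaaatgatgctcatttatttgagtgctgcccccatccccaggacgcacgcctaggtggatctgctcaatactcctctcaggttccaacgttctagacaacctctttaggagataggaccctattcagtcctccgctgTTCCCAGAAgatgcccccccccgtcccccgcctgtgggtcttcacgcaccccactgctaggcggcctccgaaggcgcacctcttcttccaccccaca
Psme3: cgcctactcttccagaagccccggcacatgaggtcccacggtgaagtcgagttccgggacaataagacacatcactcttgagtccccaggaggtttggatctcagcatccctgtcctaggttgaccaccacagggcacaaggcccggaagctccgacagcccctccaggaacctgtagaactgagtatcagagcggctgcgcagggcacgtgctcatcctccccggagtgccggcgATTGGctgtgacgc

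The Psmd4 window held an interferon response element match, TTTCCATTTC, at position -80 from the start and a CCAAT match, ATTGG read on the other strand, at position -95. The Psmb9 window held only a CCAAT match at position -8, and Psme3 only one at position -14. The Psmb8 window held a gamma-activated site match, TTCCCAGAA, at position -97. The 250-base windows were available for 36 member genes with 39 promoters. None of them matched the glucocorticoid response element, which 0.387% of all 32851 promoters did. The antioxidant response element was in 4 of the 39 (Psmb6, Psmc6, Psmd9 and Psmd12), beside 10.2% of all promoters. The interferon response element was in 3 of the 39 (Psmb3, Psmd4 and Psmd9), beside 2.98%. The gamma-activated site was in 1 of the 39, beside 7.02%, and CCAAT was in 16 of the 39, beside 33.8%. A match describes the letters of the window only.

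In the 19S regulatory particle, Psmd4 rose and Psmd1 and Psmd11 fell, while the other 14 of its 17 members did not pass. Psmd4 encodes Rpn10, a ubiquitin receptor of the base. Its values were 13.01, 13.09, 13.14, 13.10, 13.11 and 13.04 on vehicle arrays 1 to 6, and 14.09, 14.21, 14.22, 14.27, 14.10 and 14.08 on dexamethasone arrays 1 to 6. Every dexamethasone array lay above every vehicle array, and the gap between the groups was far wider than the spread within either. The mean went from 13.08 ± 0.05 to 14.16 ± 0.08 (SD, n = 6), a rise of 1.08 (SE 0.04, 95% interval 0.98 to 1.18), or 2.12-fold, in 6 of 6 cultures, with an adjusted p of 1.08e-06 by limma. By size of rise it ranked 92 among the 24265 genes tested.

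The other base subunits outside the ATPase ring went the other way or did not pass. Psmd1 encodes Rpn2, a large scaffold of the base. It lay at 12.25, 12.13, 12.24, 12.17, 12.30 and 12.11 in vehicle and at 11.87, 12.00, 12.09, 12.02, 12.06 and 11.85 in dexamethasone. The groups did not overlap, the lowest vehicle array being culture 6 and the highest dexamethasone array culture 3. It fell by 0.22 on the log2 scale (SE 0.05) in 6 of 6 cultures, with an adjusted p of 0.0209. It did not pass without culture 1, 5 or 6, after centring or with all probe sets in one fit, with adjusted p up to 0.0707 over the 16 other settings. Psmd2, the other large scaffold, was 12.17 ± 0.06 and 12.04 ± 0.10 and differed by -0.13 (adjusted p = 0.151). It passed after quantile normalization alone among the 16 settings.

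The 6 ATPases of the base, Psmc1 to Psmc6, did not pass by limma, and 0 of the 6 had an unadjusted p under 0.05. Their differences ran from -0.10 for Psmc1 to 0.02 for Psmc6, with a median of -0.05, and 5 of the 6 were below 0. Psmc1 was 13.17 ± 0.15 in vehicle and 13.06 ± 0.12 in dexamethasone (adjusted p = 0.27 by limma). Psmc6 was 13.06 ± 0.06 and 13.07 ± 0.06.

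In the lid, Psmd11 was the member past the threshold among 8. Psmd11 encodes Rpn6, a lid subunit known to clamp the particle to the core. Its values were 12.60, 12.44, 12.59, 12.46, 12.45 and 12.48 in vehicle and 12.35, 12.38, 12.43, 12.35, 12.28 and 12.18 in dexamethasone, with no overlap between the groups. The difference of -0.17 (SE 0.05) had an adjusted p of 0.0459. It ran from -0.21 to -0.15 over the 16 other settings, and the call was lost without any 1 of the 6 cultures, after centring, with no filter and with all probe sets in one fit, with adjusted p between 0.0071 and 0.123 over the 16 settings. Psmd12 and Psmd7, also of the lid, were lower in 6 of 6 cultures, by -0.16 and -0.14 with adjusted p of 0.0795 and 0.115. Psmd14, the deubiquitinase of the lid, was lower in 5 of 6 cultures, and Psmd8, at 0.09, was higher in 5 of 6. The median of the lid was -0.07.

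In the 20S core, 1 of 14 members rose and none fell. All 8 alpha subunit genes did not pass by limma, and their differences ran from -0.07 for Psma3 to 0.05 for Psma8. An unadjusted p under 0.05 was found for 0 of the 8, while such values were common over all genes tested. Psmb1, a structural beta subunit, rose. Its values were 14.05, 13.96, 13.97, 14.03, 14.12 and 14.01 in vehicle and 14.24, 14.17, 14.40, 14.37, 14.39 and 14.30 in dexamethasone. All dexamethasone arrays lay above all vehicle arrays. The rise was 0.29 (SE 0.05), or 1.22-fold, in 6 of 6 cultures, with an adjusted p of 0.00501. The structural Psmb3 was 0.12 higher with an adjusted p of 0.253.

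The standard catalytic subunits measured here were Psmb6, which carries the caspase-like site, and Psmb7, which carries the trypsin-like site. Psmb6 lay at 10.98, 10.56, 10.76, 10.75, 10.95 and 10.76 in vehicle and at 10.80, 10.58, 10.91, 10.88, 10.91 and 10.80 in dexamethasone. Psmb7 lay at 13.36, 13.24, 13.43, 13.41, 13.38 and 13.30 in vehicle and at 13.28, 13.30, 13.50, 13.52, 13.33 and 13.59 in dexamethasone. The groups overlapped for both genes, with differences of 0.02 (95% interval -0.10 to 0.14) and 0.07 (95% interval -0.06 to 0.19).

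Of the 3 immunoproteasome genes, Psmb9 rose and Psmb8 and Psmb10 did not pass. Psmb9 encodes the interferon-inducible subunit that takes the place of Psmb6. Its values were 8.45, 7.93, 8.08, 8.16, 8.34 and 8.07 in vehicle and 8.75, 8.27, 8.68, 8.64, 8.64 and 8.47 in dexamethasone. The groups overlapped, since cultures differed in level, but every culture moved up, by 0.30 in the least and 0.59 in the most. The rise was 0.40 (SE 0.05, 95% interval 0.28 to 0.52), or 1.32-fold, with an adjusted p of 0.0014 by limma. All 3 genes lay between the median and the 95th percentile of the negative controls on all arrays.

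Psmb8, the counterpart of Psmb5, lay at 7.97, 7.61, 7.83, 7.97, 8.03 and 7.84 in vehicle and at 7.95, 7.65, 7.87, 8.07, 8.10 and 7.96 in dexamethasone. Its difference was 0.06 with a 95% interval of -0.03 to 0.15 and an adjusted p of 0.395. The difference between its change and that of Psmb9 was not tested. Psmb10, the counterpart of Psmb7, lay at 8.31, 8.002, 8.16, 8.30, 8.45 and 8.07 in vehicle and at 8.28, 8.01, 8.41, 8.52, 8.55 and 8.42 in dexamethasone. It was higher by 0.15 (SE 0.06) in 5 of 6 cultures with an adjusted p of 0.154.

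Among the caps other than the 19S particle, Psme3 fell. Psme3 encodes PA28 gamma, a nuclear activator that opens the core without ATP or ubiquitin. Its values were 11.35, 11.25, 11.32, 11.31, 11.37 and 11.32 in vehicle and 11.04, 11.10, 10.98, 11.17, 11.18 and 10.93 in dexamethasone, with no overlap. It fell by 0.25 on the log2 scale (SE 0.05), or 1.19-fold, in 6 of 6 cultures, with an adjusted p of 0.0125. Psme1, the interferon-inducible PA28 alpha, lay at 9.15, 9.17, 9.24, 9.24, 9.20 and 9.21 in vehicle and at 9.13, 9.18, 9.23, 9.35, 9.25 and 9.33 in dexamethasone. Its difference was 0.04 with a 95% interval of -0.05 to 0.14. Psme4, the large activator PA200, was 11.91 ± 0.02 and 12.05 ± 0.09, 0.14 higher in 5 of 6 cultures, with an adjusted p of 0.105.

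The chaperones that assemble the 19S base are Psmd5, Psmd9 and Psmd10, and they leave before the finished particle works. Psmd10, also called gankyrin, was 12.53, 12.28, 12.65, 12.63, 12.41 and 12.28 in vehicle and 11.97, 12.14, 12.31, 12.25, 12.23 and 12.25 in dexamethasone. The groups overlapped, since the dexamethasone array of culture 3 lay above the vehicle arrays of cultures 2 and 6. The difference of -0.27 (SE 0.07) was below 0 in 6 of 6 cultures with an adjusted p of 0.04, and it ranged from -0.56 in culture 1 to -0.02 in culture 6. The call was lost without any 1 of cultures 1 to 5, after centring, with no filter and with all probe sets in one fit. Psmd5 and Psmd9 were higher by 0.09 and 0.13, each in 5 of 6 cultures, with adjusted p of 0.418 and 0.165. Psmc3ip and Psme3ip1, which are no subunits, each differed by -0.06 and did not pass.

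**Figure D2:**
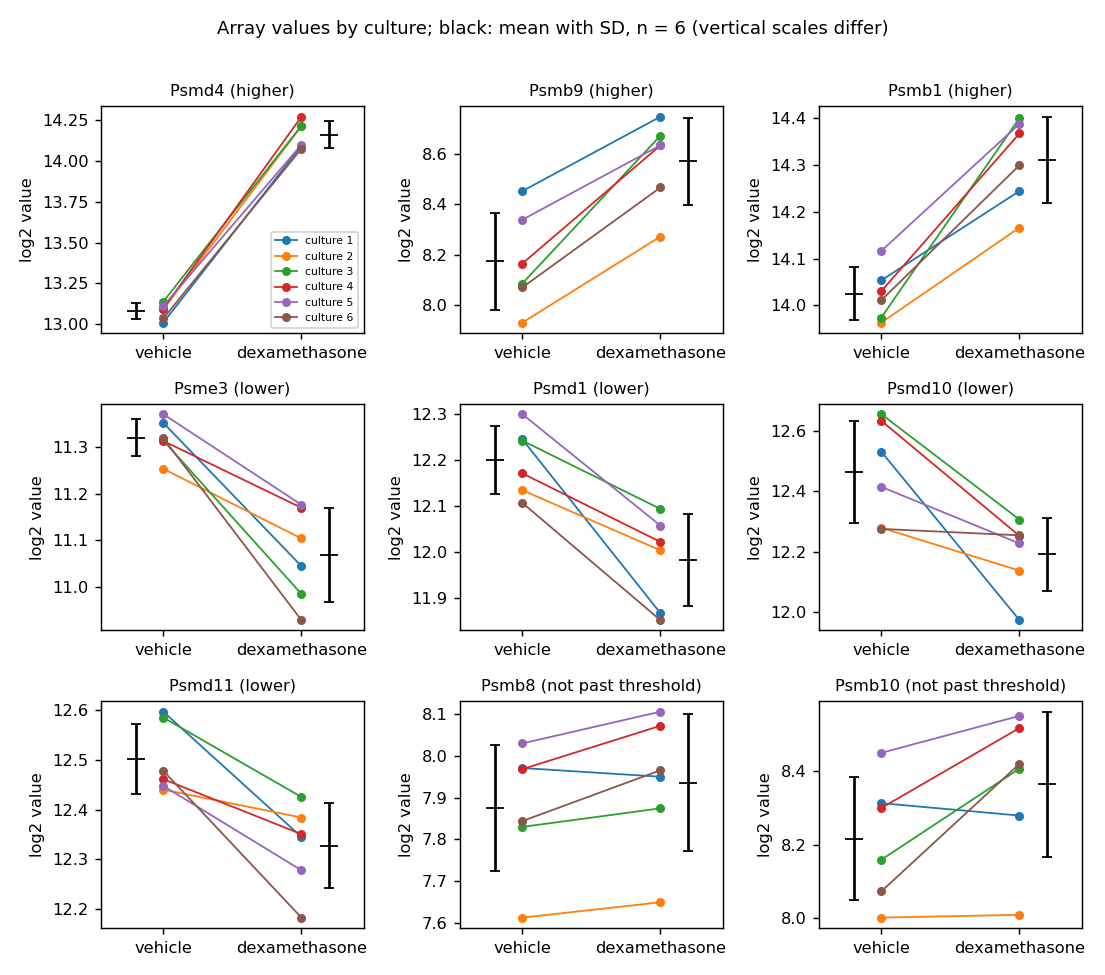
Log2 array values of the 7 members past the threshold and of Psmb8 and Psmb10, with 1 line per culture from vehicle to dexamethasone and the mean with SD (n = 6) in black; vertical scales differ between panels. The lines of Psmd4 all climb by about the same amount, and culture 2 is lowest for Psmb8, Psmb9 and Psmb10 in both treatments.

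The role groups were set side by side by their medians. The median change was 0.00 over the 14 core members, -0.06 over the 17 regulatory particle members, 0.15 over the 3 immunoproteasome members, 0.09 over the 3 assembly chaperones and 0.04 over the 3 activators, beside -0.01 for all genes tested. In the core 7 of 14 were above 0, in the regulatory particle 4 of 17, in the immunoproteasome 3 of 3 and among the assembly chaperones 2 of 3, beside 11086 of all 24265 genes tested. After quantile normalization the medians of core, regulatory particle and immunoproteasome were -0.05, -0.11 and 0.10, so the core's sign turned, and after centring they were 0.02, -0.04 and 0.17. The groups are small and were described, not tested against each other. Of the 42 tested members 5 had groups that did not overlap (11.9%, beside 6.73% of all genes), and 9 moved the same way in all 6 cultures (21.4%, beside 19.6%). All genes here include many below the negative controls' median, where no tested member lay. Neither share was computed without those genes, so neither sets the members apart.

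**Figure D3:**
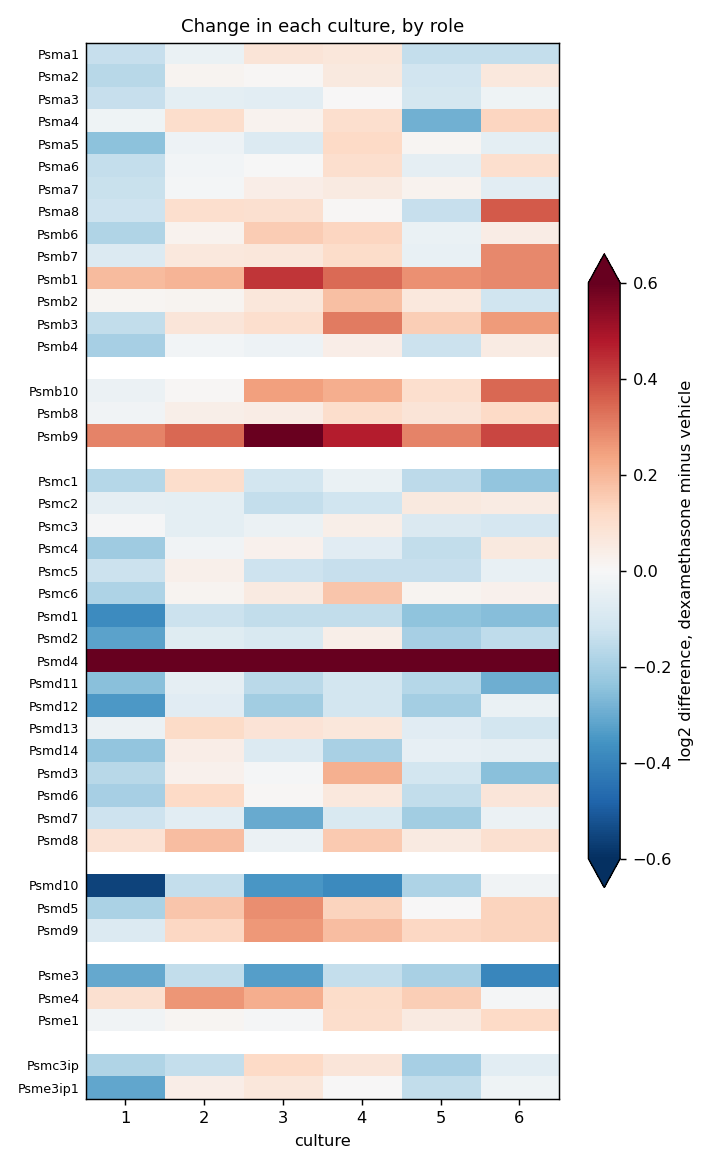
The log2 difference of dexamethasone minus vehicle in each of 6 cultures (columns) for the 42 tested genes (rows, in blocks by role as in the plot of changes), with colours at full strength from 0.6 outwards. The rows of Psmd4, Psmb9 and Psmb1 are red in every column, and culture 1 is mostly blue.

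The cultures differed among themselves. In culture 1 the median change of the members was -0.14, in culture 4 it was 0.07, and over all genes tested the medians of the 6 cultures lay between -0.02 and 0.01. The regulatory particle had a median below 0 in 5 of 6 cultures, from -0.17 in culture 1 to 0.01 in culture 2. The immunoproteasome had a median of -0.02 in culture 1 and of 0.35 in culture 6. On vehicle arrays culture 2 was the lowest of the 6 for 25 of the 42 members, and culture 5 was the highest for 19.

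In culture 2 all 3 immunoproteasome genes had their lowest value of the 6 cultures in vehicle and again in dexamethasone, with median deviations from the group means of -0.24 and -0.30. Other members were low there too, with median deviations in vehicle and dexamethasone of -0.09 and -0.11 for the core. For the regulatory particle they were -0.07 and -0.01. The neutrophil genes S100a8 and S100a9 were also lowest in culture 2, at 10.21 and 10.82 in vehicle and 8.89 and 8.96 in dexamethasone, while the other cultures lay between 11.20 and 13.55. The part of neutrophil RNA in the levels of the immunoproteasome genes was not tested. Without culture 2 the rise of Psmb9 still passed.

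Members past the threshold were next set beside the protein-coding genes that adjoin them in RefSeq's order, a comparison chosen after the members' values were seen. Of 14 neighbours of the 7 called members, 13 were tested, 3 rose (Pip5k1a, Tap1 and Tbp) and none fell, with 10 not past the threshold. Over the neighbours of all members 12 of 72 tested rose and 3 fell, beside 7.39% and 4.56% of all genes. On one side of Psmd4 lies Pip5k1a, a lipid kinase gene on the same strand, whose start is 64316 bases from that of Psmd4. It lay at 9.97, 9.81, 9.90, 10.01, 9.86 and 9.87 in vehicle and at 10.62, 10.46, 10.47, 10.40, 10.27 and 10.27 in dexamethasone. The groups did not overlap, and the rise was 0.51 (SE 0.05) with an adjusted p of 0.000405. On the other side Zfp687 differed by 0.01 with a 95% interval of -0.14 to 0.15.

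Psmb9 and Psmb8 lie in the MHC region among the genes of the TAP transporter, which carries peptides made by the proteasome into the endoplasmic reticulum. Tap1 starts 226 bases from Psmb9 on the opposite strand, so the Psmb9 window above covers the interval between both starts. Tap1 lay at 8.51, 8.11, 8.28, 8.40, 8.37 and 8.45 in vehicle and at 9.03, 8.83, 8.98, 8.93, 8.90 and 8.84 in dexamethasone, with no overlap, a rise of 0.56 (SE 0.05, adjusted p = 0.000227). Tap2 lay at 8.09, 7.44, 7.57, 7.76, 7.87 and 7.77 in vehicle and at 8.52, 8.14, 8.36, 8.38, 8.29 and 8.15 in dexamethasone, a rise of 0.56 (SE 0.07, adjusted p = 0.000726). Psmb8, which lies between them, did not pass, and H2-DMb1, on the far side of Psmb9, differed by 0.01. Both TAP genes passed under each of the 16 other settings. Beside Psmb1, Tbp, the TATA-binding protein gene, was 0.22 higher (adjusted p = 0.0415) in 6 of 6 cultures, and it passed under 8 of the 16, while Fam120b was 0.09 higher (adjusted p = 0.417).

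**Figure D4:**
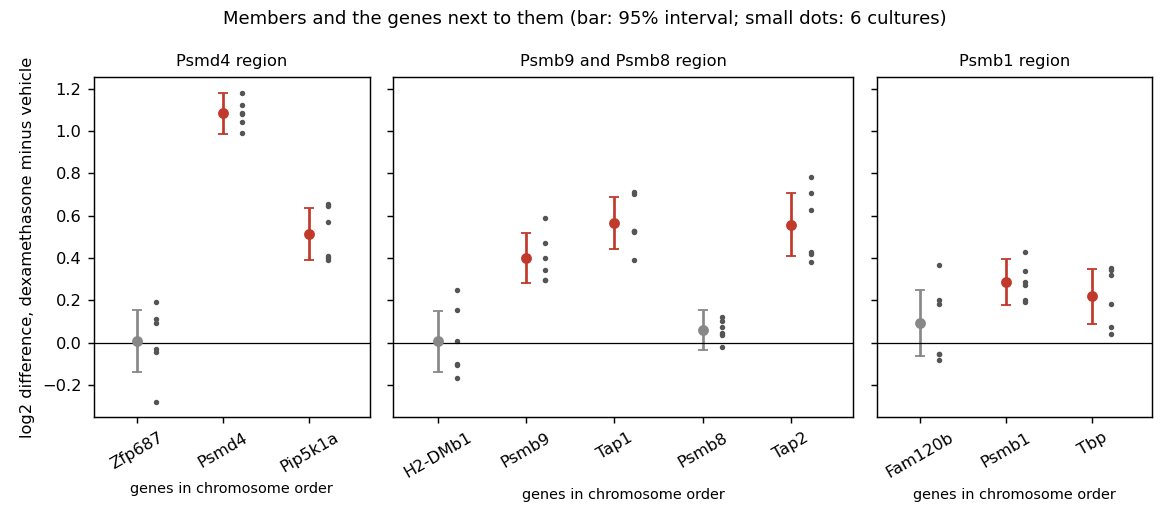
The log2 difference of dexamethasone minus vehicle with its 95% interval (large points) and in each of 6 cultures (small dots) for members and the protein-coding genes next to them, in chromosome order with no scale of distance. Pip5k1a rises beside Psmd4 at 0.51, and Tap1 and Tap2 rise by 0.56 on both sides of Psmb8, which stays near 0.06.

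Other genes of the pathway moved in small numbers. Of 77 genes in 8 lists 6 rose, 5 fell and 66 did not pass, beside 7.39% and 4.56% of all genes. Among subunits and partners without a Psm symbol, 2 of 4 fell. Uchl5 and Usp14, deubiquitinases that sit on the 19S particle and trim ubiquitin chains, differed by -0.30 (SE 0.06) and -0.22 (SE 0.04), with adjusted p of 0.00973 and 0.0118. Uchl5 was 13.60 ± 0.10 and 13.30 ± 0.10, Usp14 was 10.51 ± 0.07 and 10.29 ± 0.07, and for both no dexamethasone array reached the vehicle arrays. Both passed under each of the 16 other settings. The small lid subunit Sem1 was 14.66 ± 0.11 and 14.72 ± 0.10 and did not pass.

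Of 7 core assembly and inhibitor genes, Psmf1 rose and 6 did not pass. Psmf1 encodes PI31, a proteasome-binding protein first described as an inhibitor, and went from 7.27 ± 0.09 to 7.51 ± 0.03, a rise of 0.24 (SE 0.05) with an adjusted p of 0.0118 and no overlap. The assembly factor Pomp was 14.27 ± 0.12 and 14.16 ± 0.13. Of 11 genes around NRF1 and NRF2, the factors that drive subunit genes when proteasome activity drops or oxidants rise, none passed by limma; 5 of the 11 (Keap1, Mafg, Mafk, Nfe2l2 and Vcp) had an unadjusted p under 0.05, and up to 3 were higher and up to 2 lower under any of the 16 other settings. Nfe2l1, which encodes NRF1, was 10.05 ± 0.08 and 9.91 ± 0.11 (adjusted p = 0.211), Nfe2l2, which encodes NRF2, was 14.79 ± 0.08 and 14.98 ± 0.13 (adjusted p = 0.0581), and its repressor Keap1 was 7.62 ± 0.09 and 7.78 ± 0.03 (adjusted p = 0.0513).

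Of 8 genes that activate or transfer ubiquitin, Uba6, an activating enzyme for ubiquitin and its relative FAT10, was lower (-0.30, SE 0.05, adjusted p = 0.00725). Of 12 shuttle and extraction genes, the p97 cofactor gene Ubxn7 rose by 0.27 (SE 0.06, adjusted p = 0.0146), and Vcp, p97 itself, was lower in 6 of 6 cultures by -0.15 with an adjusted p of 0.0791. Of 9 ubiquitin ligases and FOXO genes linked to glucocorticoids in muscle, Fbxo32, the ligase atrogin-1, rose from 7.08 ± 0.07 to 7.53 ± 0.10, a rise of 0.44 (SE 0.06) with an adjusted p of 0.00107 and no overlap. Trim63, the other muscle ligase, was 5.38 ± 0.14 and 5.25 ± 0.11, under the negative controls' median on every array.

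Of 12 MHC class I presentation genes, Tap1 and Tap2 rose and Calr, a chaperone of class I folding, was lower (-0.20, SE 0.05, adjusted p = 0.0368); Calr passed under 9 of the 16 other settings. Of 15 interferon signalling genes, the kinase gene Jak1 rose from 13.08 ± 0.09 to 13.91 ± 0.21, by 0.83 (SE 0.06, adjusted p = 6.11e-05), and Jak2 was lower (-0.21, SE 0.05, adjusted p = 0.0237). The call of Jak2 was lost under 9 of the 16, among them the fit without the culture block. Irf1, a factor that induces Psmb9 and Tap1 in interferon responses, was 6.44 ± 0.06 and 6.31 ± 0.10, near the negative control median, and did not pass (adjusted p = 0.175).

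**Figure D5:**
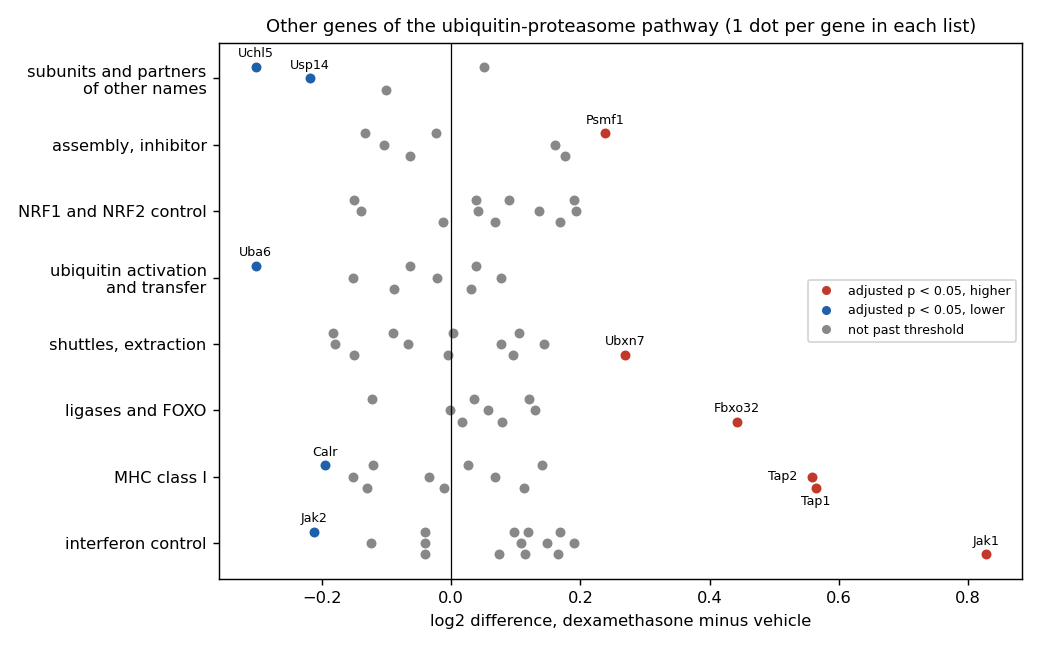
The log2 difference of dexamethasone minus vehicle for the tested genes of 8 lists of the ubiquitin-proteasome pathway, 1 dot per gene in each list, with the genes past the threshold named. Jak1, Tap1, Tap2 and Fbxo32 lie furthest to the right and Uchl5 and Uba6 furthest to the left.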

How the data were processed

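RNA of 12 arrays, 6 per treatment, was analysed from the authors' deposited table of log2 expression values per probe set. How background was corrected and arrays were normalized and summarized is not stated in the labels used here. The deposited log2 values ran from 2.07 to 19.93, with array medians between 5.57 and 5.67. Of 72688 probe sets 30604 carried 1 gene symbol and 2146 several in the platform annotation, and those with several were named for no gene. A gene with several probe sets was represented by the one of highest mean level, and genes above their array's 25th percentile on at least 6 of 12 arrays were tested.

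Dexamethasone was compared with vehicle by limma 3.58.1 (two-sided moderated tests, run in R 4.3.3), with culture as a fixed block, since the labels' protocols say that each culture was split between the treatments. Same-numbered arrays had deviations from the group means that correlated with r of 0.049 to 0.247 (mean 0.157, 4 of 6 pairs over 0.1), and differently numbered ones had a mean of -0.032. Adjusted p-values are Benjamini-Hochberg values across every gene that entered the fit, with a threshold of 0.05. Intervals are at 95%. Replicates are cultures, and their number limits the precision.

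The members and gene lists were chosen with earlier results of these data known. Any member could be named. Values on every array are given for called members and for catalytic and PA28 subunits, and from other lists up to 4 called genes in each direction, Nfe2l1 and Irf1 are named; 1 further item is not reported here. Genes named beyond this rule (neighbours of members, Pomp, Sem1, Nfe2l2, Keap1, Mafg, Mafk, Vcp and Trim63) were chosen after their values were seen. Alternatives were other scalings, filters, blocks, variance settings, summaries over probe sets and leaving out each culture. The fit was tested on simulated data. Promoter sequences and gene order come from RefSeq, GRCm38.p6.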

Additional observations from a re-analysis of the deposited data

Results flagged for a closer look

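In 3 of 146 groups checked (2.05%, over 73 genes), 1 array lay apart from the other 5 by Dixon's ratio of its gap to the group's range, and chance alone flags about 1 group in 20. Psma7, an alpha subunit gene, was highest in vehicle culture 1, at 11.55 with the next array at 11.44, a ratio of 0.685. Psmb6 was lowest in dexamethasone culture 2, at 10.58 with the next at 10.80, a ratio of 0.659. Psmd8, a lid subunit gene, was lowest in vehicle culture 2, at 14.14 with the next at 14.28, a ratio of 0.702. None of these 3 genes passed the threshold between treatments.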

How the results depend on the processing

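The counts, the medians of core, regulatory particle and immunoproteasome, the members, the called pathway and marker genes and the neighbours of called members were recomputed under up to 16 alternatives, and no called gene among them changed direction. The count of members higher stayed at 3 except with culture as a random effect, where Psme4 made it 4. The count of members lower, 4 as reported, was 7 after quantile normalization, 1 after centring on array medians, 2 with no filter, 1 with all probe sets in one fit, 5 with a filter at the negative control median, and 1 to 2 when 1 culture was left out. Without the replicate block the same 7 members were called, 3 higher and 4 lower. In that fit Jak2, S100a8, S100a9, Camp, Lcn2, Kit and Mcpt8 lost their calls and Keap1 gained one. Other pathway genes higher, 6 as reported, were 10 with culture as a random effect, 10 with a filter at the negative control median and 6 to 7 when 1 culture was left out. Other pathway genes lower, 5 as reported, were 13 after quantile normalization, 3 after centring, 8 with trended and robust variances, 3 with all probe sets in one fit and 3 to 5 when 1 culture was left out. The cause of these shifts was not tested. Over all genes 1794 rose and 1106 fell as reported, 1417 and 1738 after quantile normalization, and 956 and 526 with all probe sets in one fit. Psmb8, Psmb9, Psmb10, Psme1, Tap1, Tap2, Psmf1, Keap1, Ubxn7, Fbxo32 and Tbp, among others, lay below the 95th percentile of the negative controls on every array. By that mark their signal was not clearly apart from background, and what this does to the size of their changes was not tested.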

Other observations

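Genes next to members that did not pass the threshold themselves also held calls, by limma over all genes tested. Pitpnc1, beside Psmd12, was higher by 0.65, Emc9, beside Psme1, by 0.38, and Cpne2, beside Psme3ip1, by 0.70. Nfkbia, the NF-kappa-B inhibitor gene that glucocorticoids are known to induce, was higher by 0.42, and Pde3b, a phosphodiesterase gene, was lower, at -0.32. Also called, apart from Tap1 and Tap2, were Sirt3 (0.36), Wwp2 (0.30), Sort1 (0.25), Zfhx3 (0.25), Copb1 (-0.21) and Dnajc2 (-0.18). Over the neighbours of all members 12 of 72 tested rose and 3 fell, beside 7.39% and 4.56% of all genes. Emc9, Nfkbia, Pde3b, Sirt3 and Zfhx3 lay below the 95th percentile of the negative controls on every array. Apart from Tap1 and Tap2, the neighbours in this section were chosen after their values were seen and were not recomputed under other settings.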
